A study of Mus musculus with 10 samples.

Results

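The Hox genes of the mouse were followed in embryonic testis from E11.5 to E18.5 (days of embryonic development). They were taken as all genes with a probe set whose only annotated symbol was Hoxa, Hoxb, Hoxc or Hoxd followed by a number, which gave 33 of the 18193 genes measured. There were 9 genes of the Hoxa cluster, 9 of Hoxb, 7 of Hoxc and 8 of Hoxd, on 48 probe sets. Each gene was read from the probe set with the highest mean over the 10 arrays. Other Hox genes were not analysed here. Among them, Hoxb8 and Hoxd4 were found only on probe sets shared between several symbols, 3 in all, and were left out.

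Total RNA of mouse testis was hybridised to Affymetrix Mouse430_2 arrays, which hold several short probes per transcript and carry a probe set ID for each group of probes. The stages ran from E11.5 over E12.5, E14.5 and E16.5 to E18.5, each with 2 arrays, and the labels name no treatment or mutation. The sample titles only number the 2 arrays of a stage and do not say whether they came from separate testis preparations. The SD and limma p-values below therefore describe spread between arrays, which may be technical only. The sources used here do not give the strain, the embryos pooled in a preparation, or whether the mesonephros, the transient kidney beside the gonad, had been cut away. Signals are linear array intensities that the authors had scaled to one level per array. The tissue was checked by its markers: Sertoli cell markers summed to between 728.6 and 808.7 at E11.5 and to between 3958 and 4114 at E12.5, mostly from Cst9 and Ptgds, while Sox9 was at 198.9 ± 0.354 and 133.0 ± 8.77 (SD, n = 2 each), a change that did not pass (limma adjusted p = 0.312). The sum of fetal Leydig cell markers went from 253.0 to 272.6 at E11.5 to between 6360 and 7546 at E14.5.

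Hox genes encode homeodomain transcription factors and lie in 4 clusters on different chromosomes. Genes at corresponding places in the clusters form paralog groups, numbered from the end of the cluster that is read first and furthest forward in the embryo to the end that is read last and furthest back. Their products bind DNA together with cofactors of the Pbx and Meis families, and they give cells along the trunk, limbs and urogenital system their position. In the urogenital tract the later-numbered genes are known for patterning the ducts that run beside the gonad, and retinoic acid acts on several clusters through response elements.

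Between E11.5 and E18.5 the Hoxa and Hoxc genes all had changes below 0, the Hoxb genes were mixed, and the Hoxd genes had no common direction. The genes that fell past the test were Hoxa9, Hoxb2, Hoxc5, Hoxc6, Hoxc8 and Hoxc9, with no Hox gene called higher in that fit. Hoxd10 rose from E11.5 to E12.5, and Hoxa3, on the probe set in use, was high at E14.5 and fell at E16.5. Promoters of 2 Hoxa and 2 Hoxd genes are shown here, since they come from a cluster whose changes were all below 0 and one whose changes were not. Each is the 250 bases before the RefSeq start (assembly GRCm38.p6), 5′ to 3′ on the gene's strand, and capitals mark a match to TGACCT on either strand (AGGTCA when read from the other strand), the half-site letters of nuclear hormone receptors, retinoic acid receptors included.
Hoxa5, chr6:52204588-52204837, minus strand: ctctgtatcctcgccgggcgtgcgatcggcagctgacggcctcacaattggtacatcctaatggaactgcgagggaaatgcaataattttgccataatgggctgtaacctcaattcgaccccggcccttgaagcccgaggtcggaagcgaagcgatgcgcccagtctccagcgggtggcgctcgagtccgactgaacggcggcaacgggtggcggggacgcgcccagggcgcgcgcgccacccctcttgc
Hoxa9, chr6:52227371-52227620, minus strand: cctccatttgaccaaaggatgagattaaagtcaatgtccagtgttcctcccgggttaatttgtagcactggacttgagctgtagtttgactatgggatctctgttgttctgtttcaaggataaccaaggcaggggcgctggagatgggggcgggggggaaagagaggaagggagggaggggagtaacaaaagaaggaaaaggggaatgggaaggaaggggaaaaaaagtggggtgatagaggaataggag
Hoxd8, chr2:74704365-74704614, plus strand: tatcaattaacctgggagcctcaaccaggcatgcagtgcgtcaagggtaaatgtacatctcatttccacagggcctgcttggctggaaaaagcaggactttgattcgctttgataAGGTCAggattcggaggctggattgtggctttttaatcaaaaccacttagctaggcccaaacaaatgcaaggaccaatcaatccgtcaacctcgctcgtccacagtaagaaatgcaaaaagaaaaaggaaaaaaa
Hoxd10, chr2:74691641-74691890, plus strand: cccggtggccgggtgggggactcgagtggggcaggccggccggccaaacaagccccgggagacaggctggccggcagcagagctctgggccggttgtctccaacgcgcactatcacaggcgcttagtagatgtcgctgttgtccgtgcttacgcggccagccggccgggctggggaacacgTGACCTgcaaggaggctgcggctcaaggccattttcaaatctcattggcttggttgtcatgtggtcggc
The promoters of Hoxa5 and Hoxa9 held none of the 3 motifs searched, and those of Hoxd8 and Hoxd10 each held 1 match to TGACCT. Promoters were found for 19 of the 33 genes, 21 in all. By cluster, TGACCT was in 0 of 9 Hoxa, 1 of 2 Hoxb, 1 of 1 Hoxc and 3 of 9 Hoxd promoters, so most Hoxd promoters lacked it. Both Hoxd promoters shown are among the 3 that held it, so the 4 shown do not stand for their clusters. In all, TGACCT was in 5 of the 21 and in 14.0% of the 32817 promoters of the table in the same window. TATAAA was in 2 of 21 against 12.4%, and TGATTNAT, the letters of a Hox and Pbx site, in 2 of 21 against 2.83%, each searched on both strands. A match is only a run of letters and was not read as a bound site. The 21 promoters had a median GC content of 59.2% against 52.4% over the table, and a median ratio of observed to expected CpG of 0.687 against 0.373. Of the 4 shown, Hoxa5 had a CpG ratio of 1.11, Hoxd10 of 0.755, Hoxd8 of 0.487 and Hoxa9 of 0.266.

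Changes were tested with limma on log2(signal + 16), and genes with a mean below a signal of 49.1 were not tested. Of the 33 Hox genes, 15 passed and 18 did not, with mean signals of 2.34 to 48.0 among those left out. Just below the filter lay Hoxb4 and Hoxc10 (mean log2 of 5.77 and 5.93), and just above it Hoxb2 and Hoxb9 (6.03 and 6.07). The moderated F test over the 5 stages called 7 of the 15 tested Hox genes, against 34.7% of all tested genes, at an adjusted p under 0.05 (Benjamini-Hochberg over 10916 genes). They were Hoxa3, Hoxa5, Hoxa9, Hoxb2, Hoxc5, Hoxc8 and Hoxd10. Log2 and fold changes below all refer to signals with 16 added, so a dim gene's change comes out too small.

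From E11.5 to E18.5, 6 of the 15 tested Hox genes fell and 0 rose, against 28.2% of all tested genes called in either direction, 11.0% that fell and 17.1% that rose. At an unadjusted p under 0.05, 7 of the 15 passed in limma, and the additional gene was Hoxd8, which was higher at E18.5. A rise was called for Hoxd8 without the second E11.5 array (log2 change 0.54), and for Hoxb1 when no filter was set (0.87, adjusted p = 0.0327 in limma). The fit without a filter also called 7 falls, among them Hoxb6 and Hoxa2 (limma adjusted p = 0.00385 and 0.0346). Counting all 33 genes, tested or not, 26 had a change below 0, and the median log2 change was -0.28 beside 0.02 for all genes. Both E18.5 arrays lay below both E11.5 arrays for 18 of the 33, against 25.2% of all genes, and above them for 4, against 29.9%. From E12.5 to E16.5, 4 Hox genes fell and 0 rose, against 27.1% called, 10.2% fallen and 16.8% risen over all tested genes. These were Hoxa5, Hoxa9, Hoxc5 and Hoxc8. Again 26 of 33 changes were below 0, with a median of -0.20 beside 0.05 for all genes. These comparisons share no array, and in each both stages were scanned on the same day.

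**Figure D1:**
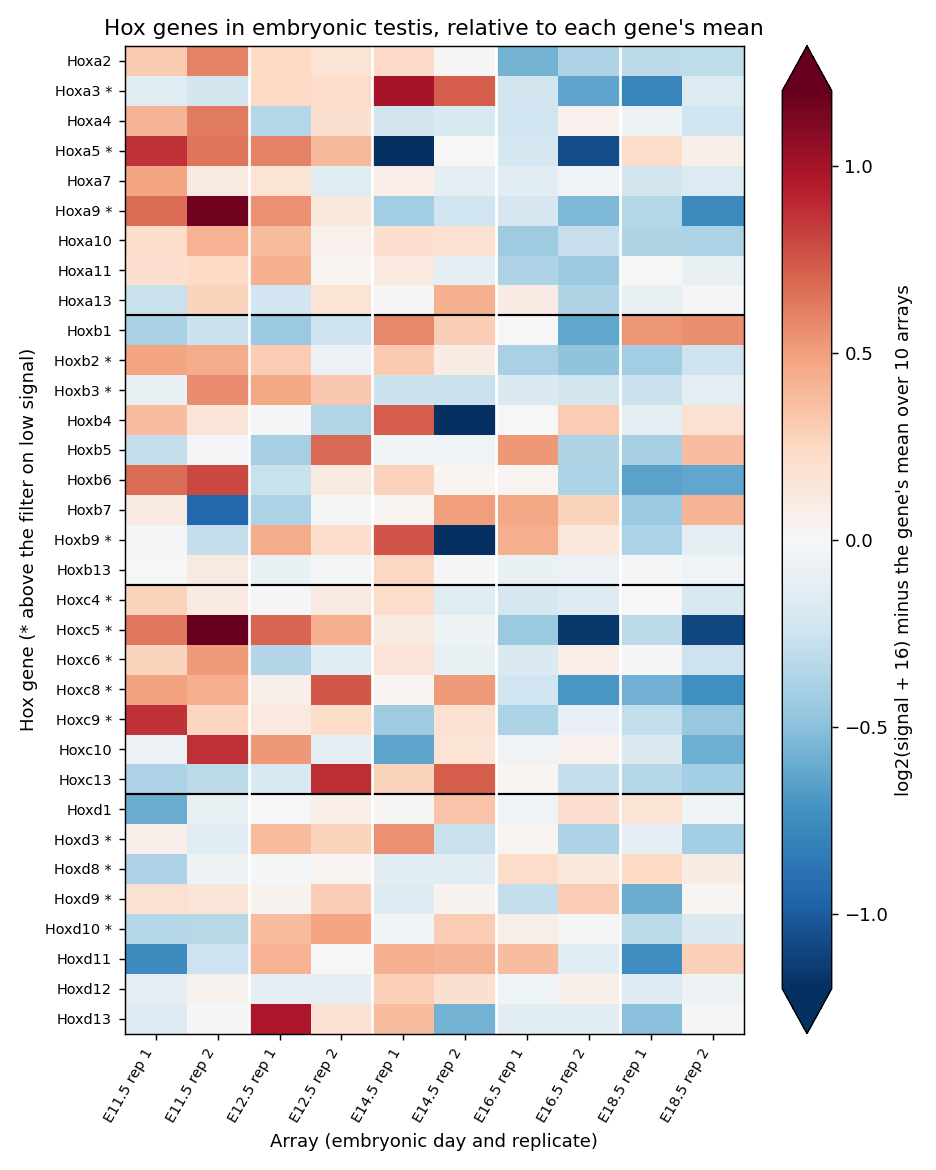
Each row is a Hox gene and each column an array, ordered by stage, with colour giving log2(signal + 16) minus the gene's mean over the 10 arrays. Black lines part the 4 clusters and asterisks mark the 15 genes that passed the filter. The left columns of Hoxa9, Hoxc5, Hoxc8 and Hoxc9 are redder than the right ones, and Hoxd10 is palest red to red in the E12.5 columns and blue at E11.5.

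Single steps between neighbouring stages gave few calls. Hoxd10 rose from E11.5 to E12.5, the only call among 15, against 3.27% of all tested genes called and 1.95% that rose. From E12.5 to E14.5 limma called 0 Hox genes, against 5.26% of all tested genes called. At an unadjusted p under 0.05, 4 Hox genes passed in limma, with no such share over all genes to set beside them. Hoxa3 fell from E14.5 to E16.5, against 10.8% of all genes called and 3.12% that fell. With the replicate number as a block Hoxc5 and Hoxc8 fell in this step too (limma adjusted p = 0.0482 and 0.0469). Without the first E14.5 array the only call was a rise of Hoxb9 (1.48, adjusted p = 0.0221 in limma). From E16.5 to E18.5 limma called 0 Hox genes, against 0.0183% of all tested genes called, and 0 passed at an unadjusted p under 0.05. Neighbouring stages were scanned on different days, so for these steps stage and scan day cannot be told apart. The mean signal was highest at E11.5 for 15 of the 33 genes, at E12.5 for 8, at E14.5 for 7, at E16.5 for 2 and at E18.5 for 1. The same count was not made over all genes, so these numbers are a description only.

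The Hoxc cluster had a median log2 change from E11.5 to E18.5 of -0.78 over its 7 genes, which was -0.40 without the second E11.5 array and -0.45 with a pseudocount of 64. All 7 changes were below 0, and for 6 genes both E18.5 arrays lay below both E11.5 arrays, against 25.2% of all genes. Of its 5 tested genes, 4 fell, against 11.0% of all tested genes, and Hoxc4 did not pass.

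Hoxc5 (probe set 1439885_at), of a paralog group known for the cervical and upper thoracic region, read 221.5 and 335.8 on the E11.5 arrays, 233.1 and 190.8 on those of E12.5, 149.7 and 130.6 on those of E14.5, 96.5 and 52.8 on those of E16.5, and 107.7 and 55.8 on those of E18.5. The arrays of E16.5 and E18.5 were all below those of the first 3 stages. The E11.5 mean was 278.6 ± 80.8 and the E18.5 mean 81.8 ± 36.7 (SD, n = 2 each), a log2 change of -1.62 with a standard error of 0.286 and an adjusted p of 0.000841 in limma, 3.07-fold lower. From E12.5 to E16.5 it fell by 1.37 on the log2 scale (limma adjusted p = 0.00337). Without the second E16.5 array this last call was lost. The other 2 probe sets of the gene were also lower at E18.5 than at E11.5, with log2 changes of -1.39 and -0.78.

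Hoxc8 (1452412_at), a thoracic Hox gene, read 388.2 and 375.2 on the E11.5 arrays, 286.4 and 469.4 on those of E12.5, 278.1 and 395.3 on those of E14.5, 228.7 and 161.9 on those of E16.5, and 177.9 and 158.2 on those of E18.5. The first 3 stages overlapped, and all 4 arrays of E16.5 and E18.5 lay below them. From 381.7 ± 9.19 at E11.5 the mean went to 168.1 ± 13.9 at E18.5 (SD, n = 2 each), a log2 change of -1.11 (SE 0.239, limma adjusted p = 0.00342) and 2.16-fold lower. The change from E12.5 to E16.5 was -0.88 (adjusted p = 0.0155 in limma), a call lost without the second array of E12.5 or without the second of E16.5.

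Hoxc9 (1449867_at), of the paralog group that acts at the thoracic to lumbar transition, read 152.8 and 95.0 on the E11.5 arrays, 84.8 and 92.1 on those of E12.5, 53.1 and 89.5 on those of E14.5, 55.2 and 70.7 on those of E16.5, and 59.7 and 51.9 on those of E18.5. Both E11.5 arrays were above all later ones, with the first far above the second. The log2 change from E11.5 to E18.5 was -0.93 (SE 0.257, limma adjusted p = 0.015), and the F test did not pass (adjusted p = 0.0555 in limma). The call was lost without the first array of E11.5 or without the second of E18.5.

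Hoxc6 (1427362_x_at), which acts in the thoracic trunk and mammary region, read 242.6 and 289.7 on the E11.5 arrays, 151.7 and 179.3 on those of E12.5, 222.5 and 185.2 on those of E14.5, 173.8 and 210.5 on those of E16.5, and 196.5 and 164.9 on those of E18.5. The later arrays ran from 151.7 to 222.5, and both E11.5 arrays lay above all of them. The change from E11.5 to E18.5 was -0.52 on the log2 scale (SE 0.183, limma adjusted p = 0.0479), and the F test did not pass (adjusted p = 0.0877 in limma). This call was lost in 8 of the 10 fits that left out 1 array and under 7 other settings, among them the mean of all probe sets (limma adjusted p = 0.196) and probe sets not ending in _x_at or _s_at (0.245). Hoxc4 had signals of 179.1 and 155.9 at E11.5 and of 145.2 and 125.1 at E18.5, which do not overlap, with a log2 change of -0.28 that did not pass (limma adjusted p = 0.272).

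The Hoxc genes below the filter were Hoxc10 and Hoxc13. Hoxc10, which acts in lumbar motor neurons and hindlimb, ranged from 23.5 to 96.0 over the arrays, with 42.1 and 96.0 at E11.5 and 38.3 and 24.7 at E18.5. Hoxc13, known for hair follicles and nails, ranged from 2.6 to 29.5.

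**Figure D2:**
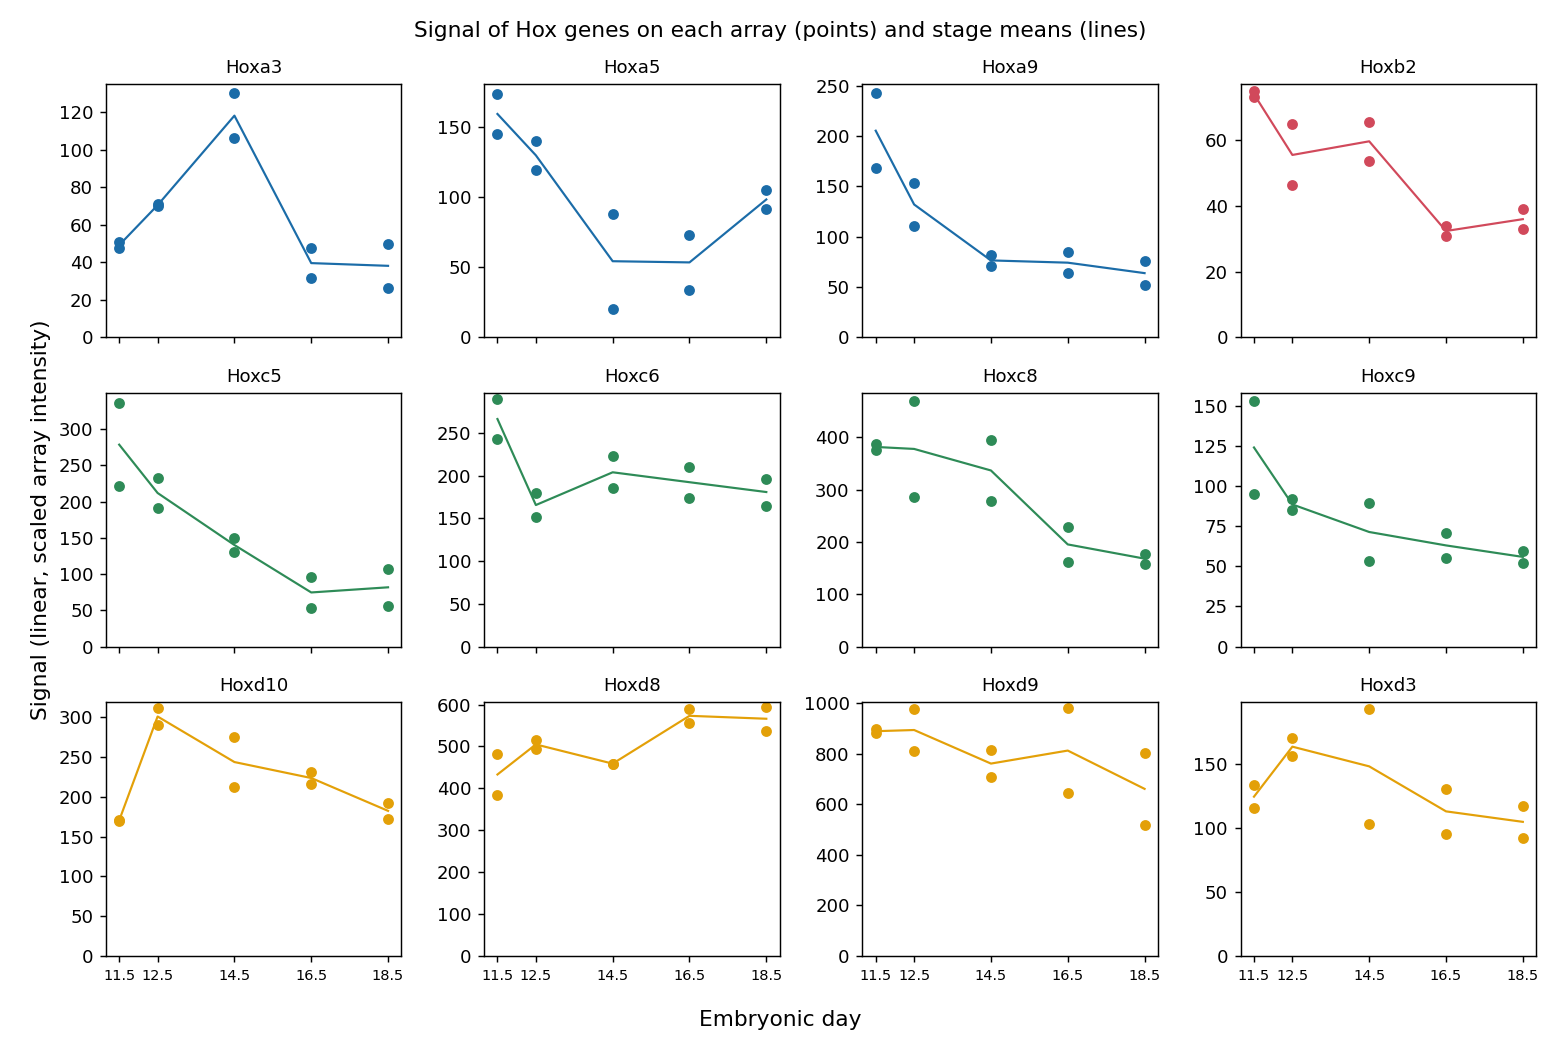
Signals of 12 tested Hox genes against embryonic day, one panel a gene, with points for the 2 arrays of a stage and a line through the stage means. Every signal axis starts at 0 and has its own scale. Hoxa9, Hoxc5 and Hoxc8 end well under their start, Hoxa3 is highest at E14.5, Hoxd10 at E12.5, and Hoxd8 and Hoxd9 keep most of their signal.

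In the Hoxa cluster the median change from E11.5 to E18.5 was -0.61 over 9 genes, which was -0.27 with a pseudocount of 64 and -0.37 with the mean of all probe sets. All 9 changes were below 0, and for 7 genes both E18.5 arrays lay below both E11.5 arrays, against 25.2% of all genes. The F test called all 3 tested Hoxa genes, against 34.7% of all tested genes, and each had its own time course.

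Hoxa9 (1455626_at), a posterior Hox gene also known for blood progenitors, read 168.2 and 242.8 on the E11.5 arrays, 153.7 and 110.4 on those of E12.5, 70.7 and 82.2 on those of E14.5, 84.9 and 63.5 on those of E16.5, and 75.4 and 52.2 on those of E18.5. The 6 arrays from E14.5 on overlapped and lay below the 4 earlier ones. The E11.5 mean was 205.5 ± 52.8 and the E18.5 mean 63.8 ± 16.4 (SD, n = 2 each). The log2 change was -1.47 (SE 0.238, limma adjusted p = 0.000412), 2.77-fold lower. From E12.5 to E16.5 it was -0.71 (adjusted p = 0.0407 in limma), a call lost in 3 fits that left out 1 array and without a filter. A second probe set of the gene had a log2 change of -0.87 from E11.5 to E18.5, with a different timing. Its arrays of E12.5 (96.7 and 131.2) and E14.5 (109.8 and 98.2) overlapped, and those of E16.5 (81.7 and 66.5) lay below them.

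Hoxa5 (1443803_x_at), needed for lung and upper trunk development, read 173.3 and 145.3 on the E11.5 arrays, 140.2 and 119.4 on those of E12.5, 20.5 and 88.0 on those of E14.5, 73.3 and 33.5 on those of E16.5, and 104.9 and 91.7 on those of E18.5. The 4 early arrays lay above the rest, and those of E14.5 stood far apart from each other. The F test passed (limma adjusted p = 0.0195), as did the change from E12.5 to E16.5 (-1.13 on the log2 scale, SE 0.383, adjusted p = 0.0428 in limma), which was lost in 7 fits without 1 array, with a pseudocount of 1, without a filter and with quantile normalization. The F test call was lost without the first E11.5 array (adjusted p = 0.0608 in limma) and without a filter (0.0664). The change from E11.5 to E18.5 was -0.61 (limma adjusted p = 0.257). The other Hoxa5 probe set read 193.9 and 195.8 on the E11.5 arrays, 102.6 and 139.1 on those of E12.5, 72.8 and 63.3 on those of E14.5, 41.8 and 39.7 on those of E16.5, and 43.1 and 43.7 on those of E18.5. It lacked the wide gap between the E14.5 arrays, and its E18.5 arrays lay below those of E14.5. With this probe set in use, the change from E11.5 to E18.5 was -1.83 and passed (adjusted p = 1.3e-05 in limma).

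Hoxa3 (1452421_at), which patterns the pharyngeal arches and their thymus and parathyroid derivatives, read 50.8 and 47.5 on the E11.5 arrays, 71.0 and 69.9 on those of E12.5, 130.1 and 106.3 on those of E14.5, 47.5 and 31.6 on those of E16.5, and 26.5 and 49.7 on those of E18.5. Both E14.5 arrays stood above all others. From E14.5, at 118.2 ± 16.8, to E16.5, at 39.6 ± 11.2 (SD, n = 2 each), the log2 change was -1.28 (SE 0.257, limma adjusted p = 0.00761), 2.43-fold lower. The call was lost without the first E14.5 array (-1.15, adjusted p = 0.0738 in limma) or without the second E16.5 array (-1.07, adjusted p = 0.121). The change from E11.5 to E18.5 was -0.30 (limma adjusted p = 0.418), and among the gene's 4 probe sets it ran from -0.63 to 0.05. On every probe set not in use, the arrays of E14.5 and E16.5 overlapped. They read 29.3 and 51.7 against 31.7 and 27.9, 46.6 and 26.4 against 48.6 and 22.4, and 8.5 and 31.2 against 11.0 and 13.8. The first of these probe sets was highest on the E11.5 arrays, at 55.3 and 60.4.

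The other 6 Hoxa genes lay below the filter. Hoxa2, which patterns the second arch, had 29.8 and 39.4 at E11.5 but 13.5 and 13.8 at E18.5. Hoxa10, needed for descent of the testis and for uterine identity, had 43.3 and 52.0 at E11.5 and 23.6 and 23.1 at E18.5. Its second probe set went the other way, with a log2 change of 0.22 against -0.69. Hoxa11, which acts with Hoxa10 in the genital ducts and kidney, had 44.8 and 46.3 at E11.5 and 37.0 and 33.7 at E18.5. For all 3 genes the E18.5 arrays lay below the E11.5 arrays. Hoxa4 and Hoxa7 did so too, with changes of -0.66 and -0.49, and Hoxa13 overlapped with a change of -0.05.

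The Hoxb cluster had a median change of -0.10 from E11.5 to E18.5, with 6 of 9 genes below 0. Both E18.5 arrays were lower for 4 genes and higher for 1, against 25.2% and 29.9% of all genes. Hoxb2 (1449397_at), a hindbrain Hox gene, was the called member of the cluster. It read 75.0 and 73.0 on the E11.5 arrays, 64.8 and 46.2 on those of E12.5, 65.5 and 53.8 on those of E14.5, 33.9 and 30.8 on those of E16.5, and 32.9 and 39.0 on those of E18.5. The 4 arrays of the last 2 stages lay below the 6 earlier ones. From 74.0 ± 1.41 the mean went to 35.9 ± 4.31 (SD, n = 2 each), a log2 change of -0.80 (SE 0.237, limma adjusted p = 0.0225), and the F test passed (adjusted p = 0.0336 in limma). The gene lay just above the filter, and this change was not called in 4 of the fits that left out 1 array. The F test call was lost in 6 such fits (adjusted p up to 0.113 in limma), without a filter and with the fluidics module as a block.

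Hoxb3 had 86.8 and 144.4 at E11.5 and 74.6 and 84.9 at E18.5, without overlap, and a log2 change of -0.43 that did not pass (limma adjusted p = 0.166). Hoxb9 had arrays of E14.5 as far apart as 97.4 and 13.2, and its change of -0.10 did not pass (adjusted p = 0.898 in limma). Below the filter, Hoxb6 had means of 72.0 ± 5.44 at E11.5 and 18.3 ± 0.283 at E18.5 (SD, n = 2 each), a log2 change of -1.36 without a test in the main fit. The fall was called without a filter and with the mean of all probe sets (limma adjusted p = 0.00385 and 0.000704). It was highest on both E11.5 arrays. Hoxb1, an early hindbrain gene, went the other way, from 8.0 and 10.4 to 29.6 and 30.4, with a change of 0.87. Hoxb4, Hoxb5 and Hoxb7, which pattern the neck and upper trunk, overlapped between E11.5 and E18.5, with untested changes of -0.23, 0.13 and 0.40. Hoxb13, a gene of the tail end and prostate, never passed a signal of 5.7.

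The Hoxd cluster had a median change of 0.01 from E11.5 to E18.5, a value that lay below 0 under quantile normalization, with a pseudocount of 1, without the first E11.5 array or without the second E18.5 array. It had 4 of 8 genes below 0, 1 with both arrays lower and 3 with both higher, against 25.2% lower and 29.9% higher over all genes. None of its 4 tested genes was called in that comparison, by limma, with 1 at an unadjusted p under 0.05. From E11.5 to E12.5 the Hoxd genes had a median change of 0.37, against -0.25 for Hoxa, -0.02 for Hoxb, -0.19 for Hoxc and -0.01 for all tested genes. For 6 of the 8 Hoxd genes both E12.5 arrays lay above both E11.5 arrays, against 17.7% of all genes. This step shares the E11.5 arrays with the comparison of E18.5 against E11.5. The 6 genes were Hoxd1, Hoxd3, Hoxd8, Hoxd10, Hoxd11 and Hoxd13, of which Hoxd1, Hoxd11 and Hoxd13 lay below the filter.

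Hoxd10 (1418606_at), known for the lumbar spinal cord, the limb and the genital tract, read 169.3 and 171.5 on the E11.5 arrays, 290.4 and 311.9 on those of E12.5, 212.4 and 275.1 on those of E14.5, 231.7 and 215.7 on those of E16.5, and 172.2 and 192.6 on those of E18.5. Both E12.5 arrays were above all others, and the values of E11.5 were below all others. From 170.4 ± 1.56 to 301.1 ± 15.2 (SD, n = 2 each) the log2 change was 0.77 (SE 0.17, limma adjusted p = 0.023), 1.70-fold higher. This call was lost when any 1 of the 4 arrays of E11.5 and E12.5 was left out and in the fit to those 4 arrays alone, and the F test call without either E12.5 array. The change from E11.5 to E18.5 was 0.09 with a 95% interval of -0.28 to 0.45 (limma adjusted p = 0.74).

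Hoxd8 (1431099_at), a trunk gene of the paralog group of Hoxc8, read 384.8 and 481.1 on the E11.5 arrays, 494.8 and 514.7 on those of E12.5, 459.1 and 458.6 on those of E14.5, 590.4 and 555.8 on those of E16.5, and 595.0 and 537.3 on those of E18.5. The 4 late arrays lay above the 6 earlier ones. Its change from E11.5 to E18.5 was 0.38 (95% interval 0.03 to 0.74), which did not pass after adjustment (limma adjusted p = 0.103). The second probe set gave 0.37.

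Hoxd9 (1419126_at), a posterior gene active in limb and urogenital tract, read 897.4 and 881.5 on the E11.5 arrays, 812.7 and 975.8 on those of E12.5, 706.8 and 815.9 on those of E14.5, 644.5 and 981.0 on those of E16.5, and 518.1 and 804.2 on those of E18.5. The arrays of a stage stood wide apart at E16.5 and E18.5. The change from E11.5 to E18.5 was -0.45 (95% interval -0.95 to 0.04, limma adjusted p = 0.166). For Hoxd3 it was -0.22 (-0.75 to 0.31, adjusted p = 0.546 in limma), with 133.4 and 115.5 at E11.5 and 117.2 and 92.4 at E18.5, which overlap. These intervals hold both no change and a drop of the size seen for Hoxc6, so they do not show that the level stayed the same. Below the filter, Hoxd1, Hoxd11 and Hoxd13 had untested changes from E11.5 to E18.5 of 0.40, 0.27 and -0.16, and the arrays did not overlap for Hoxd1. Hoxd11 acts with Hoxa11 in forearm and kidney, and Hoxd13 patterns digits and external genitalia. Hoxd12 ranged from 1.4 to 7.7 over the arrays.

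**Figure D3:**
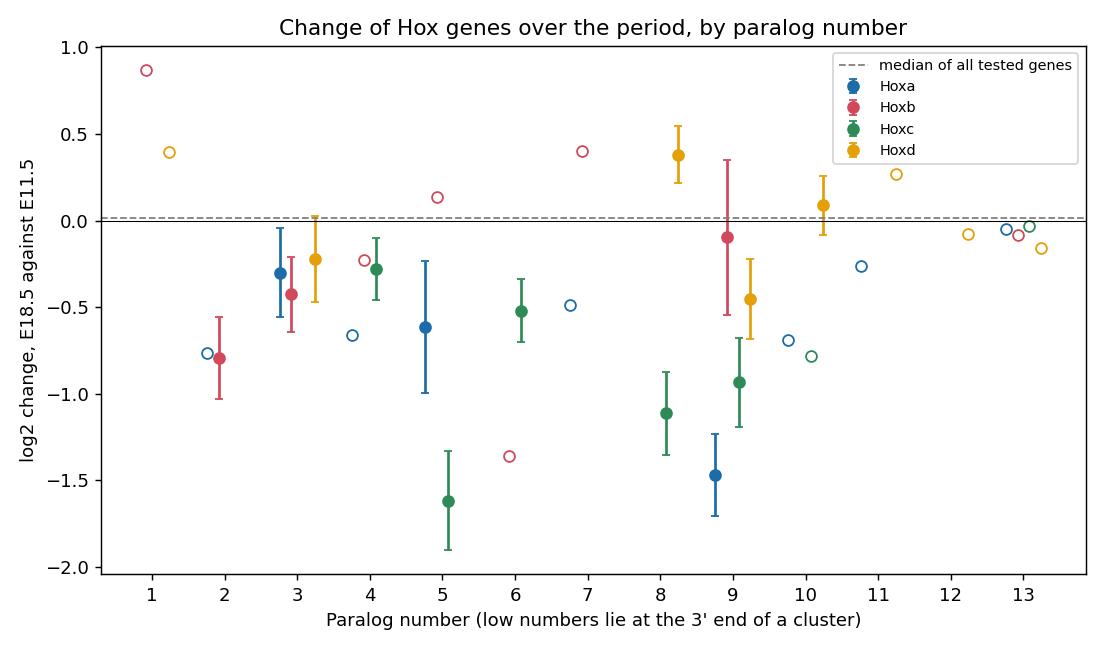
Log2 change from E11.5 to E18.5 against paralog number, with the cluster as colour, filled points and standard errors for the 15 tested genes and open points for the 18 genes below the filter. The dashed line is the median of all tested genes, at 0.02. Genes of paralog numbers 5, 6, 8 and 9 spread from -1.62 to 0.38, and the 4 genes of number 13 sit near 0.

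Taken in ranges of paralog number, groups 1 to 3 had a median change from E11.5 to E18.5 of -0.30 (7 genes), groups 4 to 8 of -0.50 (12 genes) and groups 9 to 13 of -0.13 (14 genes). Without the second E18.5 array these were -0.50, -0.46 and -0.24, which turns the order of the first pair. Without the first E11.5 array the last was -0.25. In group 2, Hoxa2 and Hoxb2 had changes of -0.76 and -0.80, the members of group 3 ranged from -0.43 to -0.22, and those of group 4 from -0.66 to -0.23. Across the 33 genes, which are not independent replicates and share the same arrays, Spearman's rho of paralog number and log2 change was 0.13, given as a description. Within group 9, all 4 members were tested: the change was -1.47 for Hoxa9, -0.93 for Hoxc9, -0.45 for Hoxd9 and -0.10 for Hoxb9. Within group 8, Hoxc8 and Hoxd8 had changes of -1.11 and 0.38, with 95% intervals of -1.63 to -0.60 and 0.03 to 0.74 that do not overlap. The difference between them was not tested. Within group 5, Hoxc5 had -1.62, Hoxa5 -0.61 and Hoxb5, below the filter, 0.13. Within group 10, Hoxa10 and Hoxc10 had -0.69 and -0.78 and Hoxd10 0.09. Group 13, the last to be read in the embryo, had changes from -0.16 to -0.03, with all 4 genes below the filter. Differences within group 5, group 9 and group 10 were not tested either.

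**Figure D4:**
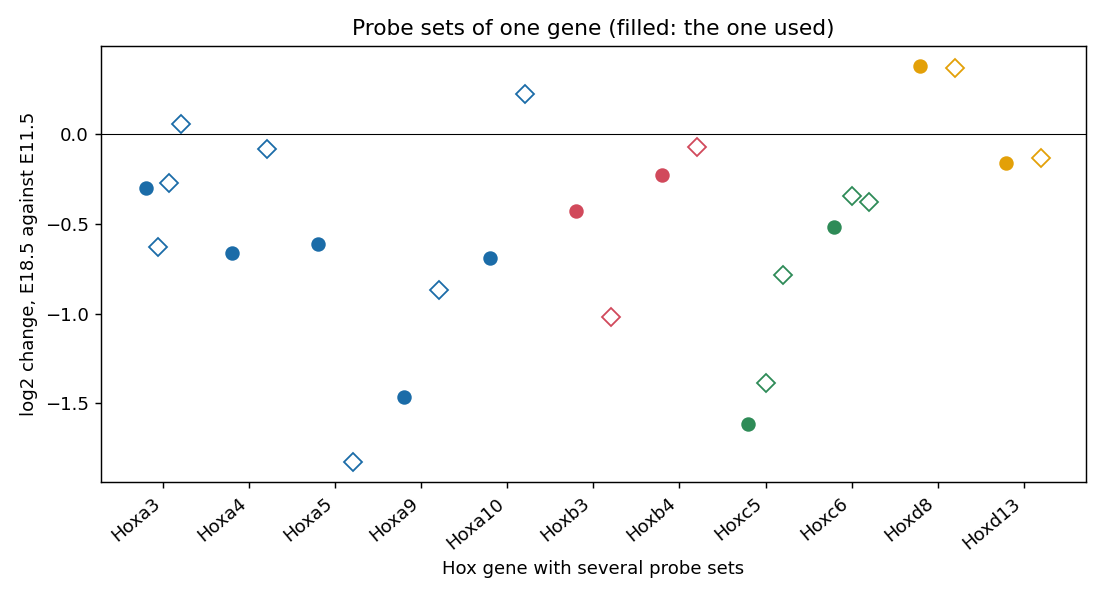
Log2 change from E11.5 to E18.5 for every probe set of the 11 Hox genes that have several, with filled circles for the one in use and open diamonds for the others. The signs are shared for 9 genes and differ for Hoxa3 and Hoxa10, and the Hoxa5 probe sets lie furthest apart, at -0.61 and -1.83.

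Of the 11 genes with several probe sets, 9 had one sign of change from E11.5 to E18.5 on all of them. The exceptions were Hoxa3 and Hoxa10. The 3 probe sets of Hoxc6 ran from -0.52 to -0.34, and those of Hoxb3 gave -0.43 and -1.02. A probe set that ends in _x_at, as those in use for Hoxa5 and Hoxc6 do, holds probes that may also bind other transcripts.

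An RNA from within a cluster, Hoxd3os1, which is read from the strand opposite Hoxd3, read 208.1 and 244.7 on the E11.5 arrays, 235.9 and 293.1 on those of E12.5, 436.6 and 315.5 on those of E14.5, 372.8 and 382.6 on those of E16.5, and 403.9 and 327.4 on those of E18.5. The 4 early arrays lay below the other 6. The log2 change from E11.5 to E18.5 was 0.65 (limma adjusted p = 0.0234), beside -0.22 for Hoxd3. Hoxa11os and Hoxb5os lay below the filter, with highest signals of 16.8 and 46.3. These transcripts were chosen after their values were seen.

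Of 9 cofactors of the Pbx, Meis and Pknox families that bind DNA with Hox proteins, 8 had a probe set and 7 were tested, and from E11.5 to E18.5 0 rose and 2 fell (median change -0.35, beside 0.02 over all tested genes). Over all tested genes 28.2% were called in that comparison. The F test called 4 of the 7, beside 34.7% of all tested genes. Meis1 read 601.3 and 567.2 on the E11.5 arrays, 383.5 and 416.0 on those of E12.5, 315.8 and 352.4 on those of E14.5, 225.4 and 251.7 on those of E16.5, and 243.1 and 227.8 on those of E18.5. Each stage from E12.5 to E16.5 lay below the one before it without overlap. The change from E11.5 to E18.5 was -1.26 (SE 0.159, limma adjusted p = 5.26e-05), 2.39-fold lower. Meis2 had 834.5 and 888.7 at E11.5 and 419.3 and 311.2 at E18.5, without overlap, and a change of -1.22 (limma adjusted p = 0.000793). Pbx3 went the other way between E12.5 and E16.5, with a change of 0.93 (limma adjusted p = 0.00748), and Pbx2 passed the F test (adjusted p = 0.0241 in limma) with its lowest mean at E14.5.

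Of 17 genes known to act on Hox clusters, 12 were tested, 3 passed the F test, and from E11.5 to E18.5 2 rose and 1 fell (median -0.03). Over all tested genes 34.7% passed the F test and 28.2% were called in that comparison, so neither count stands above the background. Ezh2, which writes the repressive Polycomb mark on histone H3, fell from 1058 ± 140 to 640.0 ± 64.6 (SD, n = 2 each; log2 change -0.71, limma adjusted p = 0.008). Kmt2d, a histone methyltransferase of active enhancers, rose by 1.05 on the log2 scale (limma adjusted p = 0.00231), and Bmi1, a Polycomb subunit, by 0.59 (adjusted p = 0.0146 in limma). Cbx2, a Polycomb gene known for its part in male sex determination, passed the F test (limma adjusted p = 0.0396). The Cdx genes, early activators of Hox clusters, lay below the filter. The retinoic acid receptor gene Rarb, itself a retinoic acid target, also lay below it, with means of 74.4 at E11.5 and 27.6 at E18.5 and no overlap between the arrays.

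In whole testis RNA, fewer cells of a type and less RNA per cell cannot be told apart. Markers of the mesonephric duct and tubules, a tissue that also expresses Hox genes, had a summed signal that was lower at later stages, mostly through Emx2 and Calb1. It was 1951 to 2298 on the E11.5 arrays, 1116 to 1172 on those of E12.5, 871.9 to 1015 on those of E14.5, 521.1 to 600.6 at E16.5 and 531.5 to 557.6 on those of E18.5. Of its 13 genes, 11 had a probe set and 5 were tested, of which 1 rose (Osr1) and 2 fell (Emx2 and Wnt11) from E11.5 to E18.5. Emx2, which is also a gene of the early gonad, made up most of the sum at E11.5, with 1580.3 and 1113.9. Calb1 went from 333.3 and 291.3 to 24.3 and 21.6, and Gata3, a defining duct marker, lay between 1.8 and 5.6 on all arrays. The lower values of Pax8 and Sim1 at E18.5 did not pass (limma adjusted p = 0.145 and 0.13). Below the filter, Cdh16 and Ret overlapped between E11.5 and E18.5, while Lhx1 and Wnt9b were lower on both E18.5 arrays. The part of these cells in the Hox changes was not tested. Of 9 tested interstitial and mesenchymal markers, 5 rose and 1 fell from E11.5 to E18.5, and their sum was 6005 to 6472 at E11.5 and 14160 to 14530 at E18.5. The one that fell was Nr2f1, a nuclear receptor gene, from a mean of 406.6 ± 74.6 to 63.7 ± 4.81 (SD, n = 2 each; limma adjusted p = 2.87e-07). Skeletal muscle, cartilage and neural markers, which would mark other trunk tissue, summed to 179.9 to 259.2 at E11.5, 398.8 to 403.6 at E14.5 and 342.7 to 358.3 at E18.5. Myh3, a muscle myosin gene of that list, was highest at E14.5, as Hoxa3 was on the probe set in use. Its log2 changes were 1.04 from E12.5 to E14.5 and -0.85 from E14.5 to E16.5 (limma adjusted p = 0.0309 and 0.0458). Of the 4 tested genes of the list only Myh3 passed the F test. Col2a1 was highest at E12.5, Acan at E18.5 and Sox10 at E14.5. The part of muscle in the Hoxa3 course was not tested.

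Kidney markers had a probe set for 6 of 7 genes, with 1 tested, Cited1, which rose, and the other 5 genes summed to 109.6 to 134.5 at E11.5 and 134.4 to 151.9 at E18.5. Adrenal markers had 3 tested genes, of which 2 rose and 1 fell, and a sum of 167.8 to 209.1 at E11.5 and 570.1 to 698.9 at E18.5. Of 5 tested blood cell markers, 1 rose (Lyz2) and 2 fell (Hba-x and Hbb-bh1, globin genes of the embryo) from E11.5 to E18.5. With the globins the sum was 11790 to 16160 at E11.5 and 674.6 to 793.2 at E18.5, and without them it was 502.0 to 568.6 and 666.8 to 741.9. The part of blood cells in the change of Hoxa9 was not tested. The ratio of the 3′ to the 5′ probe set of Actb, which rises with RNA degradation or incomplete copying, lay between 1.57 and 2.62 over the arrays. It was 1.84 and 1.57 at E11.5 and 1.87 and 2.62 at E18.5, and 1.93 and 2.03 at E12.5 and 2.60 and 2.60 at E16.5. Its part in the results was not tested. In both comparisons the earlier stage was processed on fluidics modules 1 and 2 and the later on 3 and 4, so module and stage cannot be told apart there.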

How the data were processed

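The authors had deposited 1 linear intensity per probe set and array for 45101 probe sets. Their software and its target level are not given in the sources. The mean without the lowest and highest 2% was 125 on every array, so the deposited columns had been scaled, and medians ran from 35.2 to 57.7. The remaining files hold scanner settings, per the file headers, and were read for scan day and fluidics module. RNA was extracted with Trizol, per the labels.

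Symbols came from the platform annotation, updated through Entrez numbers in a RefSeq table (GRCm38.p6). Of the probe sets, 34958 had 1 symbol, 932 had more and 9211 had none. Entrez numbers gave 34754 names, an accession gave 1, and 203 stayed with the platform's symbol. Per gene the probe set with the highest mean was used. Promoters are RefSeq's of the same assembly, and no other coordinates are printed, since the files name no build.

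Values were analysed as log2(signal + 16). One model with stage as its term was fitted to all 10 arrays with limma 3.58.1 in R 4.3.3 (lmFit, eBayes with trend, 5 residual and 8.59 prior degrees of freedom), without genes whose mean lay under the 40th percentile. Two-sided p-values were adjusted by Benjamini-Hochberg over 10916 genes, with a threshold of 0.05. On data simulated for E18.5 against E11.5 over 10916 genes, 77% of 100 genes changed by 1 on the log2 scale and 94% of 100 changed by 2 were recovered, with 12 false calls. Only 2 arrays a stage limit the precision, and between arrays of a stage r was 0.963 to 0.980.

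The members and gene lists were chosen with earlier results of these data known. All Hox genes could be named, with the values of all arrays for those called in the F test or in E18.5 against E11.5 and for the cluster's lowest p. In other lists up to 4 called genes by adjusted p of the F test and defining markers could be named, while Rarb, Bmi1, Calb1, Osr1, Cited1, Nr2f1, Myh3, Lyz2, the globins and the Cdx genes were named after their values were seen.

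Arrays of one number shared no stated source. Alternatives were pseudocounts of 1 and 64, no filter and a 60th percentile filter, quantile normalization, the mean of all probe sets, probe sets without _x or _s, eBayes without trend, 4-array fits, replicate and module blocks, and leaving out each array.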

Additional observations from a re-analysis of the deposited data

How the results depend on the processing

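Results moved with settings mainly for genes near the threshold. The F test called 3 Hox genes under the 60th percentile filter, and E18.5 against E11.5 also 3, since fewer genes were tested. For E12.5 against E11.5, 2 were called with module as a block and 0 in the 4-array fit. For E14.5 against E12.5, quantile normalization called 2, the mean of all probe sets 1 and the module block 1, all falls. For E16.5 against E14.5, falls called were 0 with the 60th percentile filter, 2 with quantile normalization, 2 with eBayes without trend, 3 with the replicate block and 3 in the 4-array fit. For E16.5 against E12.5, 2 were called without a filter and 2 with the 60th percentile filter. Where the cause is not given, the cause was not tested.

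Median changes from E11.5 to E18.5 with pseudocounts of 1 and 64 were -0.993 and -0.274 for Hoxa, -1.02 and -0.452 for Hoxc, -0.425 and -0.161 for groups 1 to 3, and -0.622 and -0.246 for groups 4 to 8. With a pseudocount of 1 they were -0.308 for Hoxb, -0.378 for groups 9 to 13 and -0.0783 for Hoxd, a turn of sign. Quantile normalization gave -0.694 for Hoxa, -0.888 for Hoxc, -0.416 for groups 1 to 3 and -0.0265 for Hoxd, again turned. The mean of all probe sets gave -0.371 for Hoxa and -0.393 for groups 4 to 8, and probe sets without _x or _s gave -0.415 for groups 4 to 8. The Hoxd median thus lay near 0 with no settled sign.

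Without 1 array, the counts called were 6 to 10 for the F test, 0 to 1 for E12.5 against E11.5, 0 to 1 for E14.5 against E12.5, 0 to 2 for E16.5 against E14.5 (at most 1 a rise), 0 to 0 for E18.5 against E16.5, 3 to 6 for E18.5 against E11.5 (at most 1 a rise) and 0 to 4 for E16.5 against E12.5. Medians ran from -0.698 to -0.499 for Hoxa, -0.249 to -0.0847 for Hoxb, -0.987 to -0.399 for Hoxc and -0.0992 to 0.123 for Hoxd. They ran from -0.503 to -0.265 for groups 1 to 3, -0.547 to -0.402 for groups 4 to 8, and -0.254 to -0.0767 for groups 9 to 13. The Hoxd median was -0.0556 without E11.5 replicate 1 and -0.0992 without E18.5 replicate 2. The Hoxa3 log2 change in E18.5 against E11.5 ran from -0.616 to 0.0126, above 0 without E18.5 replicate 1. The Hoxb9 log2 change in E18.5 against E11.5 ran from -0.236 to 0.0418, and was 0.0411 without E11.5 replicate 1 and 0.0418 without E18.5 replicate 1. Hoxa9, Hoxc5 and Hoxc8 kept their calls from E11.5 to E18.5 under every alternative that tested them.

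Same-numbered arrays shared no stated source, but those of E11.5, E12.5 and E14.5 shared a fluidics module, as did those of E16.5 and E18.5. Within these sets of stages, number and module cannot be told apart. Deviations of same-numbered arrays from their stage mean correlated at 0.00444 to 0.366 over 10 pairs of stages, 6 of them over 0.1. All 10 were above 0, a hint from the data only. The replicate block moved E16.5 against E14.5 from 1 call to 3. With scan day as a random block limma set the correlation to 0, since the stages already fix the day. That block adds nothing to the main fit, and its results were left out. The correlation within a module was 0.148.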
